A study of Mus musculus with 36 samples.

Results

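The 10 genes described here encode subunits of the transcription factor NF-kappa-B and proteins that regulate it. These are the inhibitors Nfkbia, Nfkbib and Nfkbie, the nuclear inhibitor-like proteins Nfkbid and Nfkbiz, the ubiquitin-editing enzyme Tnfaip3 (A20), and the subunits Nfkb1, Nfkb2, Rel and Relb. They were taken by name from the 16812 genes of the count table, with the transcript of the highest total count standing for each gene. These genes, and the lists used below, were chosen with earlier results of these data known. Shares and medians over all genes are therefore set beside them as description, not as an independent test. All 10 passed the filter on low counts, which left 11953 genes for testing.

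RNA was sequenced from the peripheral blood of Townes mice, a sickle cell strain whose adult globin genes were replaced by human ones, including the sickle beta-globin gene, so that every group carried the same humanised globin loci. Mice received MIR29B, a cholesterol-modified microRNA of the miR-29 family, or a scrambled control, with mini-osmotic pumps and in doses of 2 or 3 mg/kg, and blood was sampled at weeks 0, 2 and 4. Both doses of MIR29B and both doses of the scrambled control were sampled at all 3 weeks, which gave 12 groups of 3 libraries. The series asked how dosing with MIR29B affected fetal haemoglobin and transcripts across the genome. Whether week 0 blood preceded dosing is not established, and at week 0 the arm names the later treatment at least as much as an exposure. The labels give neither the ages of the mice nor whether the libraries of different weeks came from the same animals, and p-values therefore reflect how far these samples spread, which may be technical.

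NF-kappa-B is a family of dimeric transcription factors that drive inflammatory genes. In resting cells the dimers are kept in the cytoplasm by IkappaB proteins. Signals from cytokine and Toll-like receptors activate the IKK kinase, IkappaB is degraded, and the freed dimers enter the nucleus, where they also switch on the genes of their own inhibitors. Nfkbia (IkappaBalpha) and Tnfaip3 are classic examples of such negative feedback, and in blood they are abundant in activated neutrophils and monocytes.

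The blood was not a pure population of the labelled erythrocytes. Alas2, the first enzyme of haem synthesis in red cells, stood at 58900 to 149000 CPM (counts relative to library size, scaled by the TMM method) in the 36 libraries. The neutrophil gene S100a9 stood at 62.9 to 1080 CPM, the macrophage and neutrophil gene Lyz2 at 137 to 1200 CPM, the B cell gene Cd79a at 6.76 to 238 CPM and the T cell gene Cd3e at 2.38 to 12.1 CPM, and none of these was at 0 in any library. Library totals were 10.7 to 45.65 M counts, with a median of 29.12 M. Ribosomal RNA took over 5% of the counts in 3 libraries, replicate 1 of scrambled at week 0 and 2 mg/kg and replicates 2 and 3 of MIR29B at week 2 and 2 mg/kg. Ribosomal protein genes took over 10% in 3 others, replicates 2 and 3 of MIR29B at week 0 and 2 mg/kg and replicate 1 of scrambled at week 2 and 3 mg/kg. Calls that were lost without these libraries are named beside the results.

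The promoters of these genes are shown because several are known to be bound by NF-kappa-B itself. RefSeq promoter windows (GRCm38.p6) matched 7 of the 10 genes, Nfkbia, Nfkbib, Nfkbid, Nfkbie, Tnfaip3, Nfkb2 and Rel. The 250 bases before each start were searched on both strands for the kappa-B consensus, a motif of 10 bases. It was found in a window of 6 of the 7, against 4.46% of the 27025 genes with a window. Nfkbid and Nfkb2 had 3 windows each and Tnfaip3 had 2, while all 27025 genes shared 32851 windows. Genes with several windows had more chances of a match, and 3.9% of all windows held the motif. A match is a description of the letters, and binding was not measured. The window of Nfkbia, chr12:55492648-55492897 on the minus strand, is given 5′ to 3′ with the motif in capitals. It ends at the base before the start, and its match lies 29 to 20 bases before it.
Nfkbia: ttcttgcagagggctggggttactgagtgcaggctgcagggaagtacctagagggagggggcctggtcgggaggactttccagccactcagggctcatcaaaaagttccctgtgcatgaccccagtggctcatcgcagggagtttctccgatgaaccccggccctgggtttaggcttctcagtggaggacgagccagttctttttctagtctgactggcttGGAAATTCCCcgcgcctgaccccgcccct

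One match from each of the 5 other genes is set beside it to show how much the site varies, with up to 10 flanking bases on each side, in the direction of the gene and with the motif in capitals. Nfkbid, Tnfaip3 and Nfkb2 held more than 1 match in their windows. The matches shown for these genes lie inside the annotated gene spans, ahead of a start within the gene. The matches shown lie at chr7:30422180-30422189 for Nfkbid, chr17:45555594-45555603 for Nfkbie, chr10:19015413-19015422 for Tnfaip3, chr19:46304698-46304708 for Nfkb2 and chr11:23771051-23771061 for Rel. In Nfkb2 and Rel the motif matched on both strands, 1 base apart, and the capitals cover both matches.
Nfkbid: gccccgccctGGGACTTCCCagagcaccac
Nfkbie: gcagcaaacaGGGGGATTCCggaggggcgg
Tnfaip3: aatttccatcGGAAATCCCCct
Nfkb2: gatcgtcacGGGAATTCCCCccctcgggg
Rel: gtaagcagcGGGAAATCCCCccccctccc

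Because the drug is a miR-29 mimic, the 3′ UTRs of the 10 genes were searched for its target sites. The mature mouse miR-29b-3p is shown 5′ to 3′ with its seed, bases 2 to 8, in capitals, and the sequences of miR-29a-3p and miR-29c-3p share that seed. Of the 10 genes, Rel alone held a site in its longest annotated 3′ UTR. One was an 8-mer at position 1107 of 5418 and the other a 7-mer at position 2351. Among 21166 genes with an annotated 3′ UTR, 3.3% held the 8-mer and 18.9% a 7-mer or 8-mer. The capitals in the Rel lines mark the bases that pair with the seed, with the A opposite the first base of the microRNA in the 8-mer.
mmu-miR-29b-3p: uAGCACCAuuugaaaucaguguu
Rel 8-mer: agaggtttgtgTGGTGCTAgagacaaaaac
Rel 7-mer: tctggcctaacTGGTGCTgtataaatagt

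The 10 genes differed widely in level. Per kilobase of transcript, the mean over the 36 libraries was 58.4 CPM for Nfkbia, 15.8 for Nfkbiz and 13.3 for Tnfaip3. The others lay at 5.43 CPM per kilobase or below, with Relb highest among them and Rel lowest at 0.544. These 3 genes thus had the most abundant transcripts of the set. They were among the most variable: the SD of log2 CPM over the libraries was 1.16 for Nfkbia, 1.36 for Nfkbiz and 1.11 for Tnfaip3, against 0.44 for Nfkb1. Rel varied most, with an SD of 1.53, but within groups its SD was still 1.45. Its lowest library held 2 counts, so much of its spread lay between replicates.

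**Figure D1:**
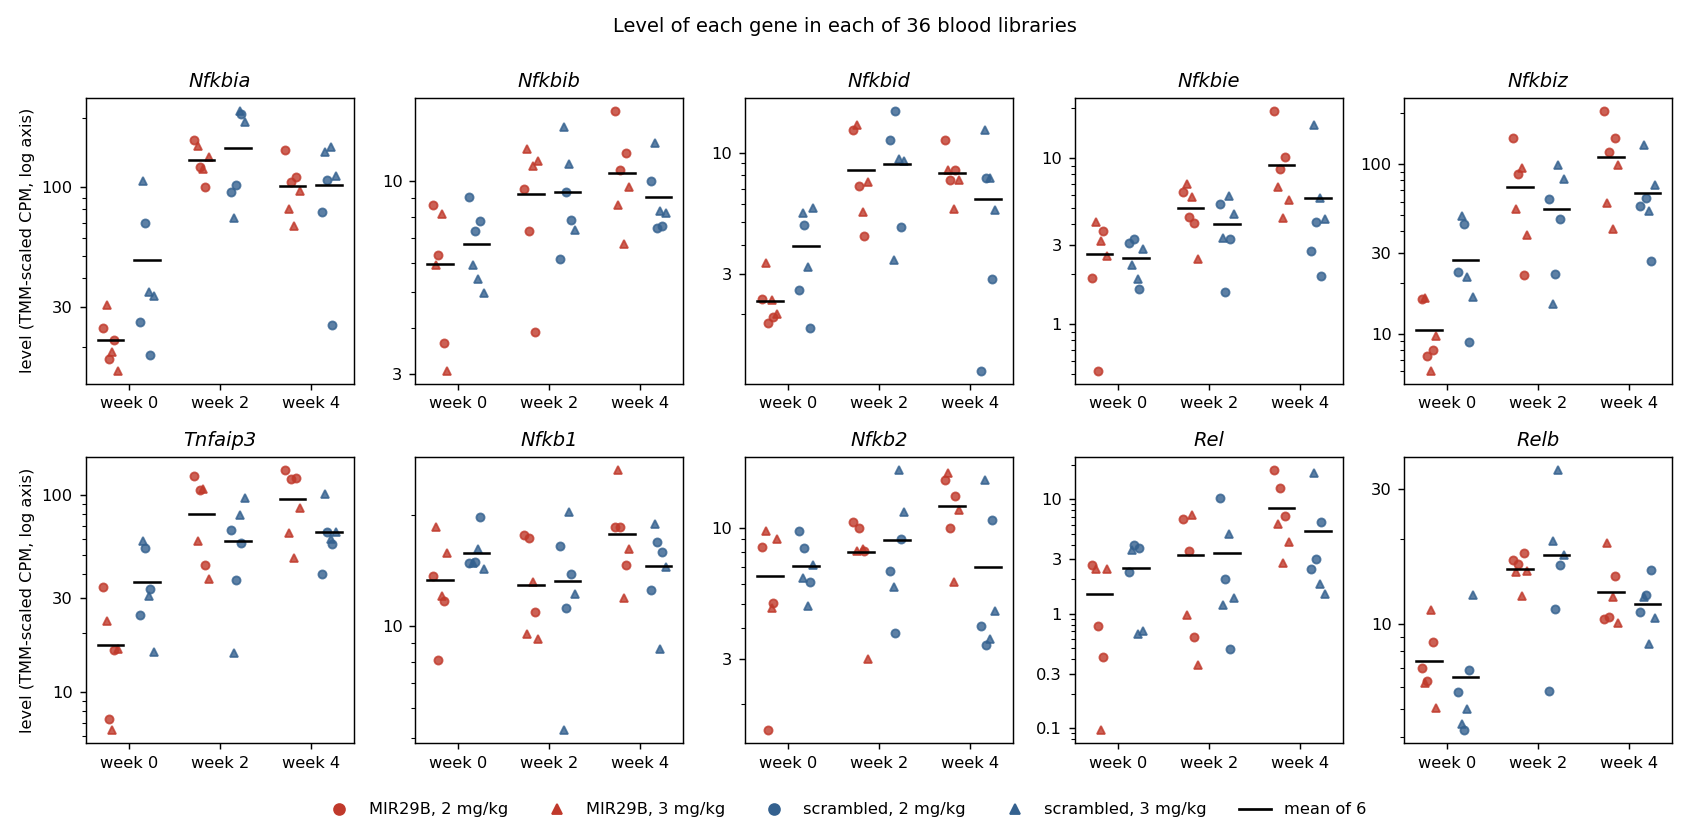
Level of each of the 10 genes (TMM-scaled CPM, log axis) in each library by week, with MIR29B (red) left of scrambled (blue), circles for 2 mg/kg, triangles for 3 mg/kg and black bars for the mean of the 6 libraries. In the MIR29B arm the week 0 libraries of Nfkbia lie at 15.8 to 30.6 CPM, below every library of weeks 2 and 4, while the ranges of Nfkb1 overlap at every week.

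The clearest change was over time. In the MIR29B arm at week 2, with doses averaged, 5 of the 10 genes rose relative to week 0 and none fell: Nfkbia, Nfkbiz, Tnfaip3, Nfkbid and Relb (edgeR's quasi-likelihood test, adjusted p under 0.05 over all genes tested). Over all genes tested, 3.45% were called higher, 1.99% lower and 5.44% in either direction. The median log2 fold change was 1.11 for the 10 genes and -0.05 for all genes tested. In all 5 genes each of the 6 week 2 libraries lay above each of the 6 week 0 libraries, which held for 4.86% of the genes tested in one direction or the other.

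Nfkbia, which binds NF-kappa-B dimers and returns them to the cytoplasm, lies at chr12:55489410-55492647 (GRCm38). In the MIR29B arm it stood at 100 to 161 CPM at week 2 (median 130), against 15.8 to 30.6 CPM at week 0 (median 20.2). The lowest week 2 library was thus well above the highest week 0 library. The change was 6.14-fold, a log2 fold change of 2.62 ± 0.36 (SE, adjusted p = 4.08e-05 by edgeR). Scrambled libraries stood at 73.3 to 216 CPM at week 2 (median 147), against 18.5 to 107 CPM at week 0 (median 34.2). The ranges overlapped there, since replicate 1 of the 3 mg/kg group was already at 107 CPM at week 0. Nfkbia also rose in that arm, by a log2 fold change of 1.64 ± 0.35 (adjusted p = 0.0109 by edgeR).

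Nfkbiz (IkappaBzeta), a nuclear protein that cooperates with NF-kappa-B at a subset of inflammatory genes, lies at chr16:55811375-55838899. MIR29B libraries stood at 22.1 to 142 CPM at week 2 (median 71.2), against 6.04 to 16.2 CPM at week 0 (median 8.85). The week 2 libraries were spread widely but did not reach down to week 0. The log2 fold change was 2.78 ± 0.47 (adjusted p = 0.000469 by edgeR). Scrambled libraries were at 15 to 98.5 CPM at week 2 (median 54.6) and 8.86 to 49.3 CPM at week 0 (median 22.4). These ranges overlapped, and the log2 fold change of 0.97 ± 0.44 did not pass (adjusted p = 0.207 by edgeR).

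Tnfaip3, which removes activating ubiquitin chains from signalling proteins upstream of IKK, lies at chr10:19000910-19015657. Its level in the MIR29B arm was 37.7 to 126 CPM at week 2 (median 82.9), against 6.42 to 34.2 CPM at week 0 (median 16.5). The 2 ranges came close without touching, and the log2 fold change was 2.2 ± 0.41 (adjusted p = 0.0014 by edgeR). Its level in the scrambled arm was 15.8 to 97.1 CPM at week 2 (median 61.7) and 16 to 58.5 CPM at week 0 (median 32.1). The lowest of these scrambled libraries was from week 2, and the log2 fold change of 0.7 ± 0.39 did not pass (adjusted p = 0.313 by edgeR).

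Nfkbid (IkappaBNS), a nuclear relative of the inhibitors, lies at chr7:30421732-30428746 and was scarcer. MIR29B libraries stood at 4.36 to 13.2 CPM at week 2 (median 7.29), against 1.83 to 3.33 CPM at week 0 (median 2.15). The log2 fold change was 1.87 ± 0.39 (adjusted p = 0.0036 by edgeR). Nfkbid in the scrambled arm was at 3.45 to 15.2 CPM at week 2 and 1.75 to 5.78 CPM at week 0, and the log2 fold change of 1.18 ± 0.37 did not pass with edgeR (adjusted p = 0.0703). It passed with DESeq2 (adjusted p = 0.0271) and with no filter on low counts (0.0179). Relb, the subunit that pairs with the p52 product of Nfkb2 in the alternative pathway, lies at chr7:19606217-19629438. It stood at 12.6 to 17.8 CPM at week 2 in the MIR29B arm (median 15.9), against 5.06 to 11.2 CPM at week 0 (median 6.65), and its log2 fold change was 1.08 ± 0.28 (adjusted p = 0.02 by edgeR). Scrambled libraries held Relb at 5.81 to 34.9 CPM at week 2 (median 16.8) and 4.21 to 12.7 CPM at week 0 (median 5.37), and it rose by 1.34 ± 0.28 on the log2 scale (adjusted p = 0.0108 by edgeR).

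The other 5 genes did not pass at week 2 in the MIR29B arm. The log2 fold change was 0.94 ± 0.37 for Nfkbie (IkappaBepsilon), 0.59 ± 0.26 for Nfkbib (IkappaBbeta) and 1.14 ± 0.73 for Rel. It was 0.32 ± 0.38 for Nfkb2, the precursor of p52, and -0.05 ± 0.26 for Nfkb1, the precursor of p50. The 95% interval for Nfkb1 was -0.56 to 0.47, which leaves out changes of the size seen for the 5 called genes. Exons of Nfkbib overlap those of Sirt2 and Ccer2, and exons of Nfkb2 those of Psd, all on the opposite strand, and the strand setting of the counting is not given in the sources used here.

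In the scrambled arm at week 2, the 2 called genes were Nfkbia and Relb, both higher, where 2.11% of all genes tested were called higher, 1.1% lower and 3.21% in either direction. The median log2 fold change was 0.68 for the 10 genes and -0.01 for all genes tested. In no gene of the 10 were the 2 weeks of that arm fully apart, compared with 0.912% of the genes tested. Either of 2 libraries decided both calls: without replicate 2 of scrambled at week 0 and 3 mg/kg the adjusted p by edgeR was 0.0589 for Nfkbia and 0.055 for Relb, and without replicate 3 of scrambled at week 2 and 2 mg/kg it was 0.0626 and 0.0604 for those genes. The log2 fold changes in these fits were 1.41 to 1.51 for Nfkbia and 1.16 to 1.23 for Relb. With only the libraries of the comparison in the fit neither passed, at log2 fold changes of 1.62 and 1.36, and 0 of all genes did. In the MIR29B arm Relb was lost without the libraries rich in ribosomal RNA (adjusted p = 0.133 by edgeR), and Relb and Nfkbid without those rich in ribosomal protein transcripts (0.127 and 0.0781). Their log2 fold changes there were 1.05 for Relb in the first fit, and 1.13 for Relb and 1.8 for Nfkbid in the second. Relb was also lost without replicate 1 (0.0544) or replicate 3 (0.0751) of MIR29B at week 0 and 3 mg/kg.

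**Figure D2:**
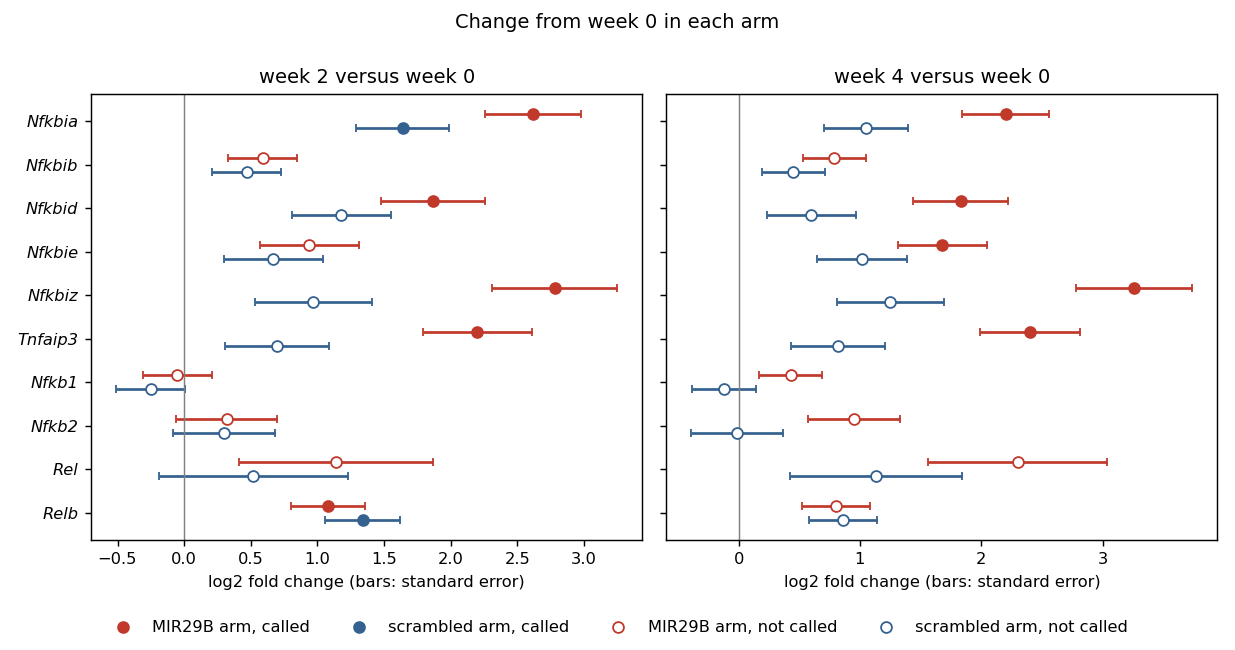
Log2 fold change against week 0 for each gene at week 2 (left) and week 4 (right), with doses averaged, MIR29B arm (red) above scrambled arm (blue), bars for the standard error and filled points for genes called at an adjusted p under 0.05. In the MIR29B arm Nfkbiz has the highest point in both panels, 2.78 at week 2 and 3.26 at week 4, and in the scrambled arm the 2 filled points are Nfkbia and Relb at week 2.

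Several markers of neutrophils also rose from week 0 to week 2 in both arms. The summed level of 25 neutrophil markers was 879 to 1880 CPM at week 2 in the MIR29B arm, against 243 to 694 CPM at week 0. The sum in the scrambled arm was 1030 to 3370 CPM at week 2 and 258 to 1390 CPM at week 0. Of 22 markers tested, 12 rose in the MIR29B arm and 10 in the scrambled arm at week 2, and none fell. At most 4 of the 25 were at 0 counts in any library. Over all genes tested, 3.45% were called higher and 1.99% lower in the MIR29B arm, and 2.11% and 1.1% in the scrambled arm. Trem1, a receptor that amplifies myeloid inflammation, rose by 3.11 ± 0.4 on the log2 scale in the MIR29B arm (adjusted p = 1.26e-05 by edgeR), and Csf3r, the receptor for granulocyte colony-stimulating factor, by 1.68 ± 0.4 (adjusted p = 0.00978). Cd14, a monocyte receptor for bacterial lipopolysaccharide that activated neutrophils also carry, was 1 of 2 monocyte and macrophage markers called of 20, with a log2 fold change of 2.76 ± 0.41 (adjusted p = 0.00012 by edgeR). Of 16 B cell markers tested, 3 fell in the MIR29B arm and 2 in the scrambled arm, with Cxcr5 among both. Of 17 T cell markers none was called in either arm. The median log2 fold change of 16 NK cell markers was -1.1 in the MIR29B arm and -1.13 in the scrambled arm, and 1 of them fell, Klra8 in the MIR29B arm. The platelet marker Rgs18 fell in both arms, 1 of 15. Of 19 erythroid markers tested, 3 rose and 1 fell in the MIR29B arm, and 2 fell in the scrambled arm. In bulk blood, more cells of a type and more RNA per cell cannot be told apart, and the part of these markers in the changes of the 10 genes was not tested.

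**Figure D3:**
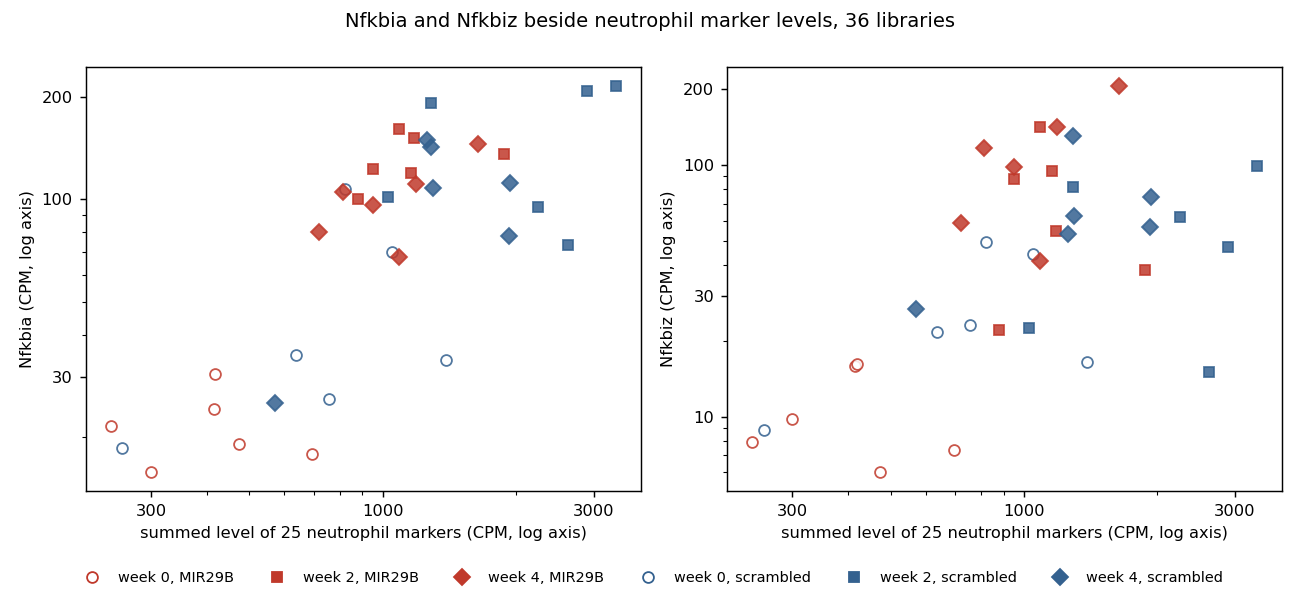
Nfkbia (left) and Nfkbiz (right) against the summed level of 25 neutrophil markers, all in CPM on log axes, with 1 point per library, red for MIR29B, blue for scrambled, and open circles, squares and diamonds for weeks 0, 2 and 4. The week 0 libraries of the MIR29B arm sit low on both axes, with marker sums of 243 to 694 CPM, and the highest marker sums, up to 3370 CPM, belong to scrambled libraries of week 2.

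At week 4 the picture in the MIR29B arm was similar, and the arms differed in what passed. Relative to week 0, 5 genes rose in the MIR29B arm and none fell: Nfkbiz, Tnfaip3, Nfkbia, Nfkbid and Nfkbie. Over all genes tested, 2.64% were called higher, 0.443% lower and 3.09% in either direction. The median log2 fold change was 1.76 for the 10 genes and -0.01 for all genes tested. The weeks were fully apart for these 5 and for Rel, 6 of 10, against 3.73% of the genes tested.

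Nfkbiz stood at 41.4 to 206 CPM at week 4 in the MIR29B arm (median 108), and its change from week 0 was 9.59-fold, a log2 fold change of 3.26 ± 0.48 (adjusted p = 3.73e-05 by edgeR). Tnfaip3 stood at 48.3 to 134 CPM (median 104) and Nfkbia at 67.5 to 146 CPM (median 100). Their log2 fold changes were 2.4 ± 0.41 (adjusted p = 0.000361 by edgeR) and 2.2 ± 0.36 (adjusted p = 0.000171). Nfkbid stood at 5.7 to 11.4 CPM, with a log2 fold change of 1.83 ± 0.39 (adjusted p = 0.00405 by edgeR). Nfkbie, the inhibitor that preferentially holds dimers with RelA and Rel, lies at chr17:45555703-45563169. It stood at 4.38 to 19.4 CPM at week 4 (median 7.67), against 0.524 to 4.15 CPM at week 0 (median 2.87), with a log2 fold change of 1.68 ± 0.37 (adjusted p = 0.00669 by edgeR).

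Rel, the subunit with the miR-29 sites shown above, was tested against both week 0 and the scrambled arm. In the MIR29B arm it stood at 2.79 to 17.9 CPM at week 4 (median 6.61), against 0.0959 to 2.66 CPM at week 0 (median 1.62). The ranges were apart, but with replicates that spread so widely the log2 fold change of 2.3 ± 0.74 did not pass (adjusted p = 0.0805 by edgeR). It passed with DESeq2, with no filter on low counts, with the replicate number as a block, with only the libraries of the comparison in the fit, and without replicate 1 of MIR29B at week 0 and 2 mg/kg. Against the scrambled arm at week 4, where Rel stood at 1.5 to 16.8 CPM (median 2.75), the log2 fold change with doses averaged was 0.52 ± 0.69 and its 95% interval was -0.84 to 1.88. By dose that value was 1.67 ± 1 at 2 mg/kg and -0.63 ± 0.98 at 3 mg/kg. At week 2 the log2 fold change over scrambled was -0.02 ± 0.7 with doses averaged, -0.24 ± 0.98 at 2 mg/kg and 0.2 ± 1 at 3 mg/kg. None of these passed with edgeR. For Nfkb2, Relb, Nfkbib and Nfkb1 the log2 fold changes at week 4 relative to week 0 in the MIR29B arm were 0.95 ± 0.38, 0.8 ± 0.28, 0.79 ± 0.26 and 0.43 ± 0.26, and none passed with edgeR. Nfkbib passed with DESeq2 (adjusted p = 0.0486) and with the replicate number as a block (0.0435).

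In the scrambled arm at week 4 none of the 10 genes was called by edgeR or by DESeq2. By edgeR, 5 had an unadjusted p under 0.05 (Nfkbia, Nfkbie, Nfkbiz, Tnfaip3 and Relb), as did 9.77% of all genes tested. Of all genes tested 0.36% were called higher, 0.1% lower and 0.46% in either direction. The median log2 fold change was 0.84 for the 10 genes and -0.05 for all genes tested. Nfkbiz was at 26.8 to 130 CPM at week 4 and 8.86 to 49.3 CPM at week 0, with a log2 fold change of 1.25 ± 0.44 (adjusted p = 0.302 by edgeR); it passed where no filter on low counts was used. Nfkbia was at 25.1 to 150 CPM at week 4, and its log2 fold change was 1.05 ± 0.35 (adjusted p = 0.241 by edgeR). Replicates 1 and 3 of scrambled at 2 mg/kg, at 78.1 and 25.1 CPM, lay within the week 0 range of 18.5 to 107 CPM.

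Neutrophil markers summed to 720 to 1640 CPM at week 4 in the MIR29B arm and 570 to 1940 CPM in the scrambled arm. Of 22 tested, 8 rose from week 0 in the MIR29B arm and 3 in the scrambled arm, and none fell. Over all genes tested, 2.64% were called higher and 0.443% lower in the MIR29B arm, and 0.36% and 0.1% in the scrambled arm. Of 20 monocyte and macrophage markers, 3 rose in the MIR29B arm and 1 in the scrambled arm. Of 16 B cell markers, 2 fell in the MIR29B arm and 1 in the scrambled arm. No T cell, NK cell, platelet or erythroid marker was called at that week. The lowest sum of that week, 570 CPM, was in the 2 mg/kg scrambled group. Without the libraries rich in ribosomal protein transcripts, Nfkbid and Nfkbie were lost in the MIR29B arm at week 4 (adjusted p = 0.135 and 0.0646 by edgeR) at log2 fold changes of 1.74 each, and Nfkbia, Nfkbiz and Tnfaip3 were still called. Between week 4 and week 2 none of the 10 genes was called in either arm by edgeR or DESeq2, and edgeR called 0% of all genes tested. Nfkbie in the MIR29B arm had the only unadjusted p under 0.05 among the 10, with a log2 fold change of 0.74 ± 0.36. In the scrambled arm there was none. Of all genes tested, 11% had such a p in the MIR29B arm and 10.8% in the scrambled arm.

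Whether the arms changed by different amounts was tested directly. The change from week 0 to week 2 was larger in the MIR29B arm by 1.8 ± 0.63 on the log2 scale for Nfkbiz and by 1.5 ± 0.56 for Tnfaip3. Neither passed (adjusted p = 0.838 and 0.855 by edgeR). These were the 2 genes of 10 with an unadjusted p under 0.05, against 5.61% of all genes tested. Each such difference also contains the difference between the arms at week 0. There the log2 fold change of MIR29B over scrambled was -1.37 ± 0.45 for Nfkbiz and -1.07 ± 0.4 for Tnfaip3. At week 2 it was 0.44 ± 0.44 and 0.44 ± 0.39. For the change from week 0 to week 4 the difference was 2.01 ± 0.63 for Nfkbiz, 1.58 ± 0.56 for Tnfaip3, 1.23 ± 0.53 for Nfkbid and 1.16 ± 0.49 for Nfkbia. Again none passed (adjusted p = 0.78 for each by edgeR). These 4 had an unadjusted p under 0.05, against 6.03% of all genes tested. DESeq2 called none in either difference, and edgeR called 0% of all genes tested. For Nfkbiz the call depended on the filter, since both differences passed when no filter on low counts was used. For Relb the differences were -0.27 ± 0.39 at week 2 and -0.06 ± 0.39 at week 4, with 95% intervals of -1.04 to 0.51 and -0.83 to 0.71. The calls in the MIR29B arm that were missing in the scrambled arm are therefore not shown to differ between the arms.

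The arms also stood apart at week 0, without passing the test. With doses averaged, Nfkbia stood at 15.8 to 30.6 CPM in the MIR29B arm at week 0, against 18.5 to 107 CPM in the scrambled arm, a log2 fold change of -1.14 ± 0.35. For Nfkbiz it was -1.37 ± 0.45 and for Tnfaip3 -1.07 ± 0.4. All 6 MIR29B libraries lay below the scrambled mean for each of these 3 genes, but the ranges overlapped. None passed (adjusted p = 0.512, 0.538 and 0.588 by edgeR). These 3 were those with an unadjusted p under 0.05, against 7.13% of all genes tested. DESeq2 called none, and edgeR called 0% of all genes tested. Nfkbia and Nfkbiz passed when no filter on low counts was used. The neutrophil marker sum at week 0 was 243 to 694 CPM in the MIR29B arm (median 418) and 258 to 1390 CPM in the scrambled arm (median 788). At week 2 with doses averaged, the log2 fold changes of MIR29B over scrambled lay between -0.16 for Nfkbia and 0.44 for Nfkbiz and Tnfaip3. No gene of the 10 was called by either tool. None had an unadjusted p under 0.05 by edgeR, against 9.83% of all genes tested.

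**Figure D4:**
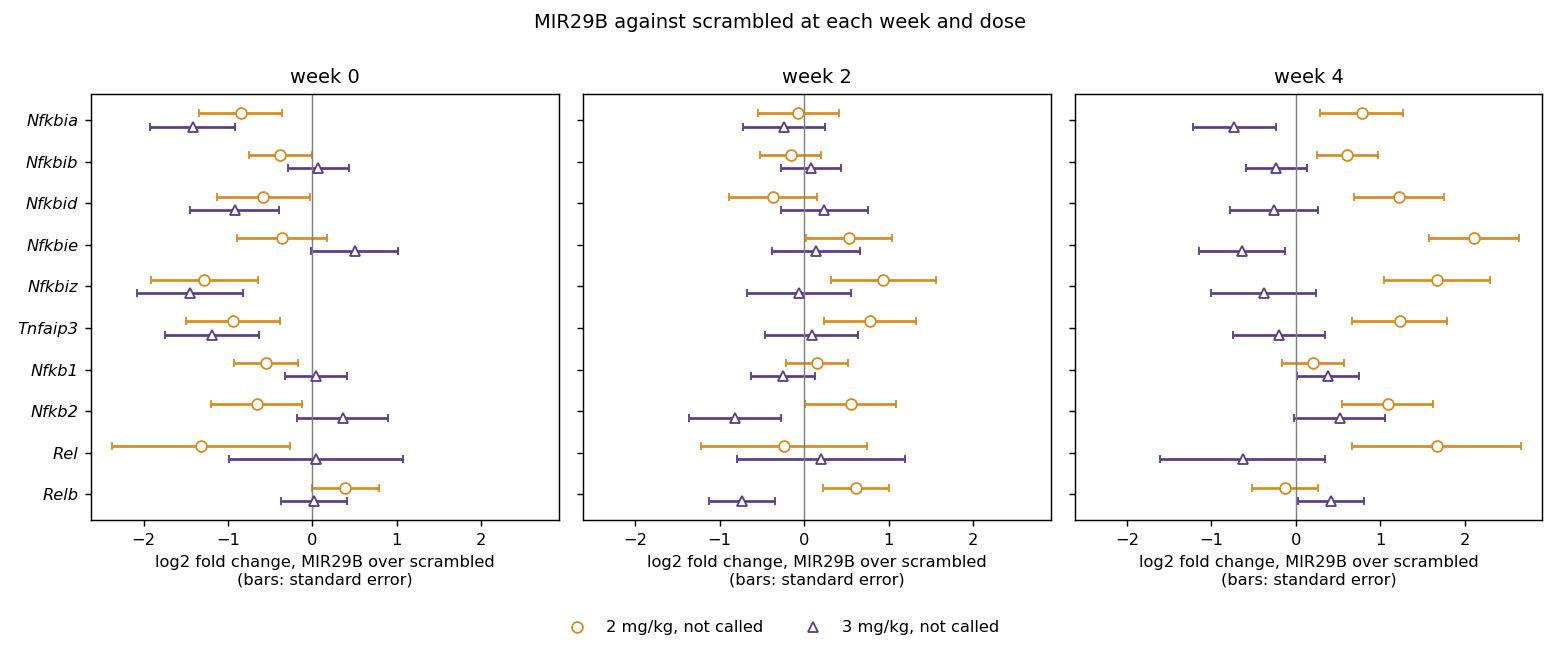
Log2 fold change of MIR29B over scrambled for each gene at week 0 (left), week 2 (middle) and week 4 (right), circles for 2 mg/kg, triangles for 3 mg/kg and bars for the standard error. No point was called. At week 4 and 2 mg/kg, 9 of the 10 points lie above 0, up to 2.11 for Nfkbie, and Relb lies at -0.13; at 3 mg/kg 7 of the 10 lie below 0.

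Values at week 4 were compared at each dose. At 2 mg/kg, 9 of the 10 genes were higher with MIR29B than with scrambled, with a median log2 fold change of 1.16 against 0.05 for all genes tested. Nfkbie stood at 19.4, 8.65 and 10.2 CPM with MIR29B, against 2.76, 4.14 and 1.94 CPM with scrambled. Nfkbiz stood at 206, 117 and 142 CPM with MIR29B, against 56.7, 62.9 and 26.8 CPM with scrambled. Each MIR29B library was above each scrambled library for both genes. The log2 fold changes were 2.11 ± 0.53 for Nfkbie, 1.67 ± 0.63 for Nfkbiz, 1.23 ± 0.56 for Tnfaip3 and 1.22 ± 0.53 for Nfkbid. These 4 had an unadjusted p under 0.05, against 2.25% of all genes tested. None passed (adjusted p = 1 for each by edgeR), DESeq2 called none, and edgeR called 0% of all genes tested. The groups were fully apart for 5 of the 10 genes, Nfkbib, Nfkbie, Nfkbiz, Tnfaip3 and Rel, and for 13.7% of the genes tested. The neutrophil marker sum was 813 to 1640 CPM in the MIR29B group and 570 to 1930 CPM in the scrambled group.

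At 3 mg/kg and week 4 the order of the arms was the other way for 7 of the 10 genes, and the median log2 fold change was -0.24. Nfkbia stood at 80.1, 67.5 and 96.1 CPM with MIR29B, against 143, 150 and 112 CPM with scrambled, a log2 fold change of -0.73 ± 0.49. It was the only gene of the 10 whose groups were apart there, against 9.09% of the genes tested. Nfkbie stood at 6.69, 4.38 and 5.58 CPM with MIR29B, against 15.8, 5.78 and 4.33 CPM with scrambled. No gene of the 10 had an unadjusted p under 0.05 by edgeR, against 3.2% of all genes tested. DESeq2 called none, and edgeR called 0% of all genes tested. The neutrophil marker sum was 720 to 1090 CPM with MIR29B and 1260 to 1940 CPM with scrambled, so that these 2 groups did not overlap in the markers either. The part of the markers in the lower Nfkbia level was not tested.

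The difference between the doses in the MIR29B effect was tested as well. At week 4 the effect at 3 mg/kg minus that at 2 mg/kg was -2.75 ± 0.73 on the log2 scale for Nfkbie, -2.05 ± 0.88 for Nfkbiz and -1.51 ± 0.69 for Nfkbia. The median over the 10 genes was -1.45, against -0.04 for all genes tested. No gene was called (adjusted p = 1 for each of these 3 by edgeR), DESeq2 called none, and edgeR called 0% of all genes tested. At week 2 Relb was the only gene of the 10 with an unadjusted p under 0.05 by edgeR, against 5.76% of all genes tested. It stood at 16.8, 16.3 and 17.8 CPM with MIR29B against 5.81, 11.3 and 16.2 CPM with scrambled at 2 mg/kg. At 3 mg/kg its levels were 15.2, 12.6 and 15.4 CPM with MIR29B against 19.7, 34.9 and 17.5 CPM with scrambled. The mean at 2 and 3 mg/kg was 17 and 14.4 CPM with MIR29B, and 11.1 and 24 CPM with scrambled. These Relb levels are listed because of that p and are not separate evidence. Dose was not tested within an arm. The MIR29B effect at 3 minus 2 mg/kg was -1.35 ± 0.56 for Relb, which did not pass (adjusted p = 0.824 by edgeR).

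The rest of the pathway was described by 3 lists. Their calls stand beside the share of all genes tested that was called higher. That share was 3.45% at week 2 and 2.64% at week 4 in the MIR29B arm, and 2.11% and 0.36% in the scrambled arm. Of 32 genes of a list made up of the IKK complex, the signalling upstream of it and the subunit Rela, 3 rose in the MIR29B arm at week 2 and none fell. These were Myd88, the adaptor of Toll-like and interleukin-1 receptors, with a log2 fold change of 1.28 ± 0.35, Bcl10, a scaffold of the CARD signalling complex, with 0.92 ± 0.25, and Rela, the p65 subunit, with 0.76 ± 0.23 (adjusted p = 0.0258, 0.0245 and 0.0429 by edgeR). The median of the list was -0.05, equal to that of all genes tested. At week 4 in the MIR29B arm 2 rose, Myd88 and the kinase Irak2. The scrambled arm had 1 call at week 2, Bcl10, and none at week 4.

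Of 20 other genes known to restrain NF-kappa-B or to belong to its feedback, 4 rose in the MIR29B arm at week 2 and 3 at week 4, and none fell. Zc3h12a (Regnase-1), a nuclease that degrades inflammatory mRNAs, rose in both arms at both weeks. Its level in the MIR29B arm was 14.3 ± 5.02 CPM at week 2 and 22.7 ± 9.7 CPM at week 4, against 3.49 ± 1.22 CPM at week 0 (SD, n = 6 each). Scrambled libraries had 13 ± 6.97 CPM at week 2 and 15.9 ± 9.65 CPM at week 4, against 4.95 ± 1.66 CPM at week 0. The others called at week 2 in the MIR29B arm were Tnfaip2, Bcl3, a nuclear IkappaB-like protein, and Tnip1, a partner of A20, with log2 fold changes of 1.53 ± 0.3, 1.37 ± 0.39 and 1.1 ± 0.28. The median of the list was -0.01 there, so most of its members did not share the change.

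Of 35 genes known as NF-kappa-B targets, 32 could be tested. For the MIR29B arm, 13 rose at week 2 and 16 at week 4, in the scrambled arm 7 and 1, and none fell in either arm. The list median log2 fold change in the MIR29B arm was 1.16 at week 2 and 1.68 at week 4. For the scrambled arm it was 0.88 at week 2 and 0.9 at week 4. Setting the genes that lacked week 0 counts at their lower bound could not move the MIR29B medians, since those bounds lie above them. Cxcl1, a chemokine that attracts neutrophils, had 0 counts in the 6 week 0 libraries of the MIR29B arm and a summed 66 counts at week 2, at least 11.1-fold higher. F3, the tissue factor that starts coagulation, also had 0 counts at week 0 and was at least 6.72-fold higher at week 2 and 10.2-fold higher at week 4. Cxcl1 and F3 could pass the filter on low counts only through groups where they were present. Without them 11 targets were called at week 2 and 14 at week 4. The 11 still hold Cd80 and Src, which were near 0 at week 0 with summed counts of 22 and 16, and the 14 still hold Cd80. The 7 calls in the scrambled arm at week 2 include Cxcl1 and Il10, with summed counts of 2 and 16 at week 0 there. The bounds use a floor of 6 counts over the week 0 group, 3 times the smallest step of 2. They cover counting error at week 0 only, not that of the later counts or the spread between libraries. Cxcl2, another neutrophil chemokine, stood at 80.4 ± 45.1 CPM at week 4, against 7.41 ± 4.29 CPM at week 0 (SD, n = 6 each), a log2 fold change of 3.37 ± 0.55 (adjusted p = 0.000171 by edgeR). In the scrambled arm at week 2 Tnf rose by 3.25 ± 0.58 on the log2 scale (adjusted p = 0.00309 by edgeR), and at week 4 the only target called was Bcl2a1b, with 1.34 ± 0.32. Several of these targets, such as Tnf, Cxcl2 and Tlr2, are made by neutrophils, whose markers are given above, and by monocytes. Of 20 monocyte and macrophage markers, 2 rose in the MIR29B arm and 1 in the scrambled arm at week 2, and 3 and 1 at week 4. The part of these cells in the changes of the targets was not tested.

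**Figure D5:**
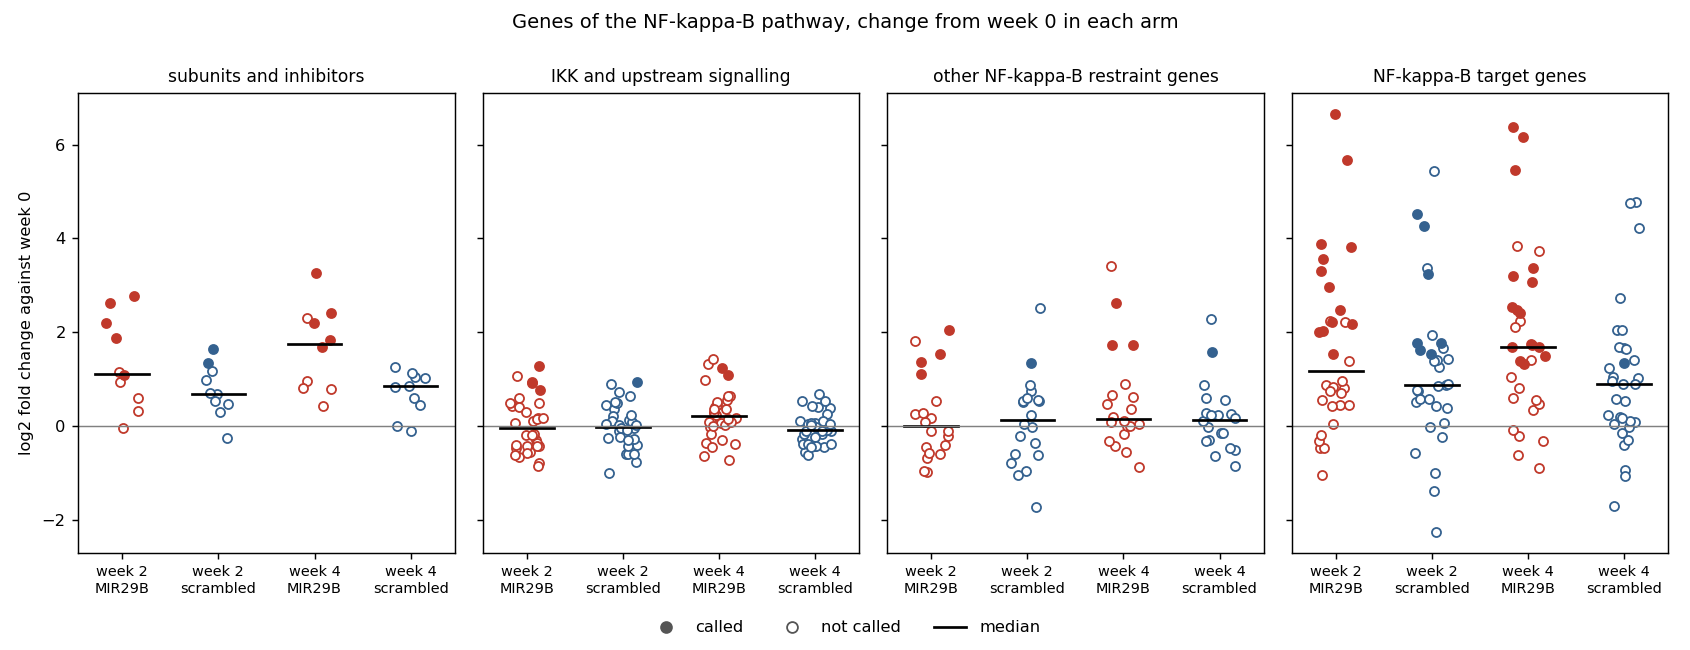
Log2 fold change against week 0 for the tested genes of 4 lists, with 1 point per gene, red for the MIR29B arm, blue for the scrambled arm, filled points for called genes and black bars for the median; fitted values of genes without counts at week 0, such as Cxcl1 and F3, depend on the prior count. The medians of the subunits and inhibitors (1.11 and 1.76 in the MIR29B arm) and of the target genes (1.16 and 1.68) lie above 0, and that of the IKK list lies at -0.05 and 0.2.

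The genes whose pattern across the 36 libraries was most like that of Nfkbia, by the root mean square difference of log2 CPM centred on each gene's mean, were Csrnp1 (0.51), Marcksl1 (0.54), C5ar1 (0.56), Il1b (0.57) and Trib1 (0.59). The median over all genes tested was 1.4, and a gene of constant level would score 1.14. C5ar1 is the receptor of complement C5a on myeloid cells and stood at 31.2 ± 5.05 CPM at week 2 in the MIR29B arm, against 5.62 ± 2.5 CPM at week 0 (SD, n = 6 each). Among the 9 other genes described here, Nfkbid ranked 31, Nfkbiz 40 and Tnfaip3 53 of the genes tested, with differences of 0.7 to 0.75. The inhibitors Nfkbie and Nfkbib ranked 381 and 529, on either side of the subunit Relb at 462. Nfkb2 ranked 2168, Nfkb1 2721 and Rel 9129, with differences of 1.17, 1.21 and 1.6, above that of a constant gene. The 36 libraries shared their groups and their scaling, and this ranking is a description.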

How the data were processed

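RNA was sequenced in 36 blood libraries, and the authors deposited raw counts, not normalised, for 25856 RefSeq transcripts. Per the submitters' processing notes, HISAT2 2.0.5, featureCounts 1.5.0-p3 and the build GRCm38 were used; the roles of these tools, the strand setting and the handling of mates are not given in the sources used here. Every deposited count was even (0 odd values), so a fragment may have been counted as 2. Transcripts were matched to symbols with a RefSeq table (25645) or GENCODE (137); 74 had no symbol, with 1.04% to 10.07% of the counts per library. Each gene was represented by its transcript of highest total, which gave 16812 genes; for the 10 genes, other transcripts held 83.7% or more of that total. Library totals were 10.7 to 45.65 M counts.

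Genes were filtered by group with edgeR 4.0.16 (minimum count 10, minimum total 15; R 4.3.3), scaled by TMM and fitted with a quasi-likelihood model of 12 groups over all 36 libraries, tested two-sided with Benjamini-Hochberg adjustment within each comparison and a threshold of 0.05. The coefficient of variation between libraries of a group was 0.5. Changes between weeks average both doses. The standard error is the log2 fold change over the square root of its F statistic. Scaling alternatives, DESeq2 1.42.0, filters, left-out libraries and replicate blocks were tried. The code was tested on simulated data. The 10 genes and all lists were chosen with earlier results of these data known. In the other pathway lists, up to 4 called genes with the largest change per comparison of weeks could be named; the markers Trem1, Csf3r, Cd14, Cxcr5, Klra8 and Rgs18 were named after their values were seen.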

Additional observations from a re-analysis of the deposited data

Results flagged for a closer look

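In 6 of 60 sets of 6 libraries (each of the 10 genes in each arm and week), 1 library lay further from the rest than Dixon's 95% limit of 0.625 for the gap over the range. Normally distributed values exceed that limit in about 1 in 20 sets. These sets hold CPM on the linear scale from both doses, so that rate need not apply and 6 of 60 is not read as an excess. Both Nfkbie, at 15.8 CPM against 5.78 CPM in the next library, and Rel, at 16.8 CPM against 6.28 CPM, were high in the same library, replicate 1 of scrambled at week 4 and 3 mg/kg. In replicate 3 of scrambled at week 0, Relb was high at 12.7 CPM in the 3 mg/kg group and Nfkb1 at 19.7 CPM in the 2 mg/kg group. Nfkbid was high at 3.33 CPM in replicate 1 of MIR29B at week 0 and 3 mg/kg, and Nfkb2 was low at 3.01 CPM in replicate 3 of MIR29B at week 2 and 3 mg/kg. No difference between arms or between doses passed its test.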

How the results depend on the processing

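No called fold change of the 10 genes changed sign under any alternative or left-out library: of 4290 recomputed values, 4059 kept direction and side of the threshold, 13 lost and 18 gained a call, and 200 uncalled values changed sign. Nfkbia, Nfkbiz and Tnfaip3 were called in the MIR29B arm at weeks 2 and 4 in every alternative run. Without the libraries over 10% ribosomal protein counts, an alternative chosen after seeing the data, 3 genes in place of 5 were called in the MIR29B arm at week 2 and 3 in place of 5 at week 4; over all genes the calls went to 84, against 650, and to 85, against 369. With no filter on low counts, 4 in place of 2 were called in the scrambled arm at week 2, 1 in place of 0 at week 4, 2 in place of 0 between arms at week 0, and 1 in place of 0 in the arm difference at each of weeks 2 and 4. With only the libraries compared, 0 were called in the scrambled arm at week 2, and 0 of all genes, against 384. The causes were not tested. With a library left out, the counts ranged from 4 to 5 (MIR29B, week 2), 0 to 3 (scrambled, week 2), 5 to 7 (MIR29B, week 4) and 0 to 1 (scrambled, week 4), and were 0 in all other comparisons.

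Replicate numbers were checked for pairing. Deviations of same-numbered libraries correlated between arms at -0.28 to 0.36 in 18 pairs, of which 8 were over 0.1, and between weeks at -0.41 to 0.33 in 36 pairs, of which 11 were, so the numbers were not used as pairs. With the number as a replicate block, 5 genes were called in the MIR29B arm at week 2 and 7 at week 4, and 2 and 0 in the scrambled arm. With a replicate block by arm, dose and number, 5 were called in the MIR29B arm at each week, and 2 and 0 in the scrambled arm. Over all genes tested, that second block moved the calls in the scrambled arm at week 2 to 109, against 384. Rel had as few as 2 counts in a library.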
